A study of Mus musculus with 2 samples.

Results

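The Lhx and Isl genes encode LIM-homeodomain transcription factors, and the set described here is the 10 genes Lhx1, Lhx2, Lhx3, Lhx4, Lhx5, Lhx6, Lhx8, Lhx9, Isl1 and Isl2. They were chosen by symbol from the deposited table that joins each peak of trimethylated lysine 27 of histone H3 (H3K27me3) to the genes within 5 kb, a table that named 4987 symbols, and from the 21887 protein-coding genes of the RefSeq gene table. The data were 1 library of chromatin precipitated with an anti-H3K27me3 antibody (ChIP) and 1 library of input DNA. Both came from wild-type primary chondrocytes of the rib cartilage of newborn CD1 mice, untreated and cultured overnight after release with collagenase. With 1 library per group there was no spread between samples for any value and no test. The libraries were grouped by their titles, and the antibody tags of both read the other way around. The header of the peak list names 1 file as ChIP and the other as control, but not by sample title. Peaks called over that control lay within 5 kb of all 24 Pax, Dlx, Nkx2 and Nkx3 genes, which are classical Polycomb targets, and of 0 of 12 chondrocyte marker genes, against 20.7% of all protein-coding genes. After filtering, the ChIP library held 17237574 tags and the input library 17004082.

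LIM-homeodomain factors carry a pair of LIM zinc-binding domains, which bind cofactors, and a homeodomain, which binds DNA. They are known for setting cell identity in the embryo. Lhx1 acts in head organization and kidney, Lhx2 in eye, forebrain and limb, Lhx3 and Lhx4 in pituitary and motor neurons, and Lhx5 in forebrain. Lhx6 and Lhx8 act in interneurons and cholinergic neurons of the ventral forebrain and in tooth, Lhx9 in gonad and limb, Isl1 in motor neurons, heart progenitors and pancreas, and Isl2 in motor and retinal neurons. In vertebrates the genes form paralogue pairs, here Lhx1 with Lhx5, Lhx2 with Lhx9, Lhx3 with Lhx4, Lhx6 with Lhx8, and Isl1 with Isl2. H3K27me3 is laid down by Polycomb repressive complex 2 and is typical of silent developmental genes, often as domains far wider than a promoter.

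All 10 genes carried the mark, each with a peak over the gene body and each with a peak of 10 kb or more. Of all protein-coding genes, 20.7% had a peak within 5 kb, 14.2% had one over the gene body and 2.63% had one of 10 kb or more. The start of the gene itself was under a peak in 7 of the 10 genes (4.45% of all protein-coding genes). A start in an interruption shorter than 1177 bp, the smallest gap of the peak list, would also count as under a peak. In Lhx2 and Isl1 the start lay in a short interruption between an upstream peak under 10 kb and a wide peak over the gene, and in Lhx3 the peak began inside the gene. The mark at Isl1 and Isl2 was the weakest of the set by the peak caller's q-value.

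The bases just upstream of 4 starts are shown because these starts differ in their relation to the peaks. They were read from the RefSeq promoter windows of GRCm38.p6, which run from 250 bases before to 50 after a start and list 9 of the 10 genes. Only bases outside the gene are printed, from 5′ to 3′ on the strand of the gene, with every CpG in capitals. Isl1 (chr13:116309689-116309938, minus strand) and Lhx2 (chr2:38339031-38339270, plus strand) lay in interruptions of the mark, with 33 CpGs in 250 bases and 24 in 240. Lhx3 (chr2:26208290-26208499, minus strand, 7 CpGs in 210 bases) lay beyond the end of its peak. Lhx8 (chr3:154330652-154330810, minus strand, 3 CpGs in 159 bases) lay under its peak. Its whole window held 4 CpGs, the fewest of the 9 genes, so it does not stand for the covered starts. The windows of the other covered genes held 31 (Lhx1), 23 (Isl2), 19 (Lhx4), 16 (Lhx6, outermost start) and 6 (Lhx9).
Isl1: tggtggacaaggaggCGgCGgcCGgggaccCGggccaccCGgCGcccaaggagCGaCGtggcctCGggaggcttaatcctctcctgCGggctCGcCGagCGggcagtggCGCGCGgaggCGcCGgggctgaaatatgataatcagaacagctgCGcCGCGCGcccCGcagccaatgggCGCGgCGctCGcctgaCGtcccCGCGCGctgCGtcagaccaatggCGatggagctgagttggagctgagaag
Lhx2: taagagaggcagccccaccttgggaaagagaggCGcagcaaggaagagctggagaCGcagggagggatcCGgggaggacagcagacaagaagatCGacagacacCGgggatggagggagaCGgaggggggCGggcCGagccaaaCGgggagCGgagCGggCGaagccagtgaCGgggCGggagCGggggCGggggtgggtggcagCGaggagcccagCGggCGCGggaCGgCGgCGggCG
Lhx3: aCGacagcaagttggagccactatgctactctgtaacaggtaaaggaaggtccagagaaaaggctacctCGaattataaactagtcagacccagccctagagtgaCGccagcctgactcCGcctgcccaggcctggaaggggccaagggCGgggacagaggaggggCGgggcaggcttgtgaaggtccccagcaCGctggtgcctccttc
Lhx8: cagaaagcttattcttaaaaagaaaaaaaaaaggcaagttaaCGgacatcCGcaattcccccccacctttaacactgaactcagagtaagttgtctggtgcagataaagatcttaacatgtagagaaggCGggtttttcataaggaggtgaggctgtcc

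The peak list joined 22 peaks to the 10 genes, 1 to 4 per gene, with a summed length of 263.5 kb. Positions are those of the deposited tables, on mm10. For each peak the deposited values are the pileup (ChIP fragments stacked per base, averaged along the peak), its enrichment over the input background as a fold, and the q-value (q), also averaged. Of these 22 peaks, 11 were 10 kb or wider, or 50%, against 5.13% of the peaks joined to all marked protein-coding genes and 3.461% of all 19359 peaks in the list. They held 84.3% of the summed length, against 32.2% over all marked protein-coding genes. In the 9 Nkx2 and Nkx3 genes the shares were higher, 61.5% of peaks and 92.9% of length, and in the 9 Pax genes they were lower, 24.1% and 77.2%. The pileup of the 11 wide peaks ran from 12.12 to 14.34 fragments (median 13.3), against a median of 12.61 over all 670 peaks of that width. The other 11 peaks had a median pileup of 11.51 fragments, against 10.99 over all narrower peaks. The strongest signal at these genes thus sat in 1 wide peak per gene, or in a pair of them at Lhx2.

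**Figure D1:**
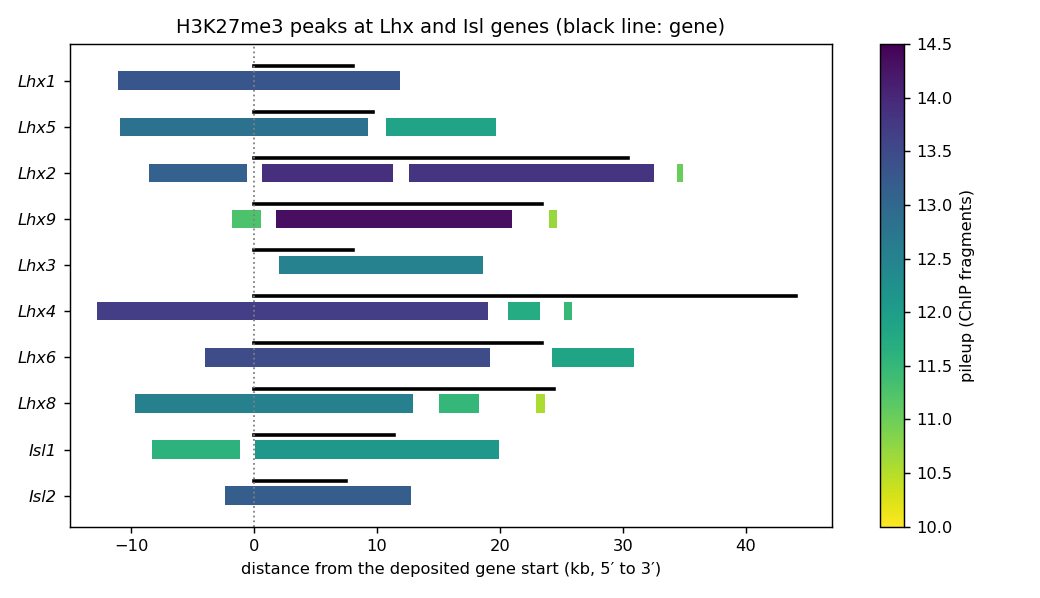
Peaks joined to each of the 10 genes, drawn by distance in kb from the deposited gene start with 5′ to the left, and shaded by pileup in ChIP fragments. Black lines show the gene. Each gene has a wide peak that begins upstream of the start or inside the gene, with the highest pileup (14.34) at Lhx9.

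Lhx1 (chromosome 11, 84517978 to 84526015, minus strand) lay whole under a single peak (84514154 to 84537103) with a pileup of 13.3 fragments, an enrichment of 3.58-fold and q = 0.00506. The peak reached 11.1 kb upstream of the start and 3824 bp past the end of the gene. It also covered the antisense gene Lhx1os (the assay does not separate strands) and ended 632 bp upstream of Aatf, an apoptosis-antagonizing factor of general expression. Its paralogue Lhx5 (chromosome 5, 120431771 to 120441455, plus strand) bore one of 20.1 kb (120420875 to 120441015) with a pileup of 12.8 fragments, an enrichment of 3.6-fold and q = 0.00577. That peak ran from 10.9 kb upstream of the start to 440 bp before the end of the gene. Another, 8.98 kb wide (pileup 11.89, 3.33-fold), followed downstream. Both genes of this pair were thus alike in having the start and nearly the whole gene covered, 100% of Lhx1 and 95.5% of Lhx5.

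Lhx2 (chromosome 2, 38339282 to 38369733, plus strand) had the largest summed length of the set, 39.0 kb in 4 peaks. A peak of 7.97 kb (38330760 to 38338728) lay upstream, with a pileup of 13.12 fragments and a fold enrichment of 3.61. Peaks of 10.7 kb (38339929 to 38350580) and 19.9 kb (38351925 to 38371854) covered the gene, with pileups of 13.87 and 13.81 fragments and fold enrichments of 3.85 and 3.71. The fourth peak, 476 bp wide, lay 3967 bp downstream of the gene, the farthest joined peak of the set, with a pileup of 11.03 fragments. The fold enrichment of 3.85, with a q-value of 0.00175, was the highest at the 10 genes and exceeded that of 99.2% of all peaks.

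Lhx9 (chromosome 1, 138825187 to 138848576, minus strand), the paralogue of Lhx2, had the highest pileup of the set. Its peak of 19.2 kb inside the gene (138827566 to 138846781) had 14.34 fragments, more than 98.9% of all peaks, with an enrichment of 3.73-fold and q = 0.00193. A peak of 2.30 kb (138848033 to 138850332, pileup 11.27, 3.34-fold) covered the start. One more, of 678 bp, lay 619 bp downstream, with a pileup of 10.69 fragments, above that of 35.8% of all peaks, and a q-value of 0.0716. The peak at the start lay 1648 bp from 2310009B15Rik, a neighbouring gene. Between the 2 peaks at the 5′ part the mark was interrupted over 1251 bp, which began 0.544 kb downstream of the start. Both paralogues therefore had strong peaks in the gene and an interruption near the 5′ end.

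Lhx3 and Lhx4, which act together in the pituitary, differed in where the mark lay. Lhx3 (chromosome 2, 26200213 to 26208289, minus strand) bore a single 16.6 kb peak (26189663 to 26206288) over the 3′ part of the gene and the bases beyond, with a pileup of 12.51 fragments, an enrichment of 3.47-fold and q = 0.00963. The start lay 2001 bp outside this peak, and the 20 kb upstream of the gene held no peak. The peak also came within 2350 bp of Qsox2, a sulfhydryl oxidase gene. Lhx4 (chromosome 1, 155698037 to 155742120, minus strand) had the widest peak of the set, 31.7 kb (155723115 to 155754848), which ran from 12.7 kb upstream to 19 kb downstream of the start, with a pileup of 13.68 fragments, an enrichment of 3.59-fold and q = 0.00427. Smaller peaks of 2.58 kb and 631 bp lay inside the gene, the second with a q-value of 0.0549, and the 3′ part carried no peak. The body was covered to 75.2% in Lhx3 and to 50.4% in Lhx4.

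Lhx6 and Lhx8, both known from the ventral forebrain, had much the same pattern. Lhx6 (chromosome 2, 36081951 to 36105408, minus strand) was covered at its start by a 23.2 kb peak (36086193 to 36109423) with a pileup of 13.48 fragments, an enrichment of 3.63-fold and q = 0.00392. Its second peak of 6.72 kb (pileup 11.88, 3.35-fold) lay downstream and overlapped Morn5. Lhx8 (chromosome 3, 154306289 to 154330651, minus strand) was likewise covered by one of 22.6 kb (154317718 to 154340300) with a pileup of 12.56 fragments, an enrichment of 3.52-fold and q = 0.00813. The peaks of 3.26 kb and 681 bp inside Lhx8 had pileups of 11.51 and 10.58 fragments, and the latter was the lowest at the 10 genes (q-value 0.0652). The Lhx8 peak at the start also covered AI606473 whole. In both genes the start-covering peak was the widest and had the highest pileup.

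The islet genes had the weakest marks of the set by q-value, but not by every measure, since the pileup at Isl2 was above that of Lhx3, Lhx5 and Lhx8 and the fold at Isl1 was near that of Lhx3. Isl1 (chromosome 13, 116298282 to 116309688, minus strand) bore a 19.9 kb peak (116289738 to 116309599) that covered 99.2% of the gene, with a pileup of 12.12 fragments, an enrichment of 3.48-fold and q = 0.0111. A peak of 7.16 kb (116310826 to 116317989) lay upstream, with 11.61 fragments, 3.28-fold and a q-value of 0.0234. Isl2 (chromosome 9, 55538673 to 55546180, plus strand) lay whole under 1 peak of 15.1 kb (55536320 to 55551445), the shortest summed length of the set, which also overlapped the 3′ end of Scaper. This peak had 13.17 fragments, more than 95.3% of all peaks, but a fold enrichment of 3.25, above only 64.3% of all peaks, and a q-value of 0.0137. The input background that these values imply was 3.37 fragments, the highest of the 22 peaks, against a genome-wide level of 2.673. This background was computed from the pileup and the fold enrichment, so it restates the lower fold at Isl2 and is not a separate measure.

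**Figure D2:**
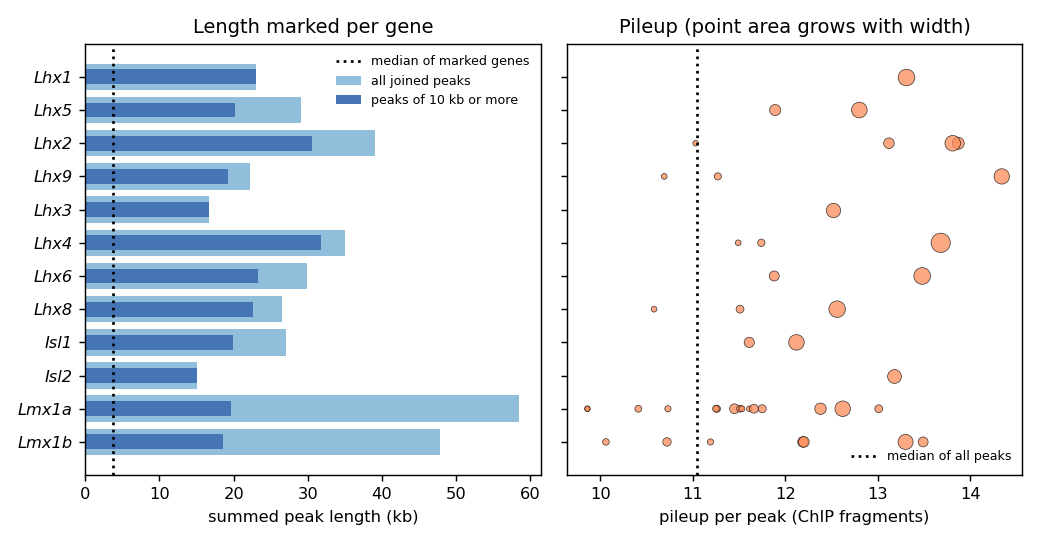
Left, summed peak length in kb for the 10 genes and for Lmx1a and Lmx1b, with the part in peaks of 10 kb or more in dark blue and the median of all marked protein-coding genes (3.75 kb) dotted. Right, pileup of each peak in ChIP fragments, with point area growing with width and the median of all peaks (11.04) dotted. The widest peak of each of the 10 genes lies above that median.

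The summed lengths of the 10 genes ran from 15.1 kb at Isl2 to 39.0 kb at Lhx2, with a median of 26.8 kb. The median over the 4535 marked protein-coding genes was 3.75 kb, with an upper quartile of 8.95 kb, so each of the 10 genes lay above the upper quartile. The medians of the Nkx2 and Nkx3 genes (33.3 kb) and of the Pax genes (41.2 kb) were higher than that of the 10 genes, and that of the Dlx genes (17.6 kb) was lower. Thresholds on the peaks separated the genes further. Peaks at or below 0.01 in mean q-value were present in 8 genes, all but Isl1 and Isl2 (5.9% of all protein-coding genes). A peak with a fold enrichment of at least 3.5 was present in 7, all but Lhx3, Isl1 and Isl2 (5.35%). With the mean q-value limited to 0.05, all 10 kept a peak (16.4%).

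The interruptions of the mark around the start were close in width to the smallest gap of the list. The smallest gap between any neighbouring peaks of the list was 1177 bp. As no narrower gap was in the list, a start in a shorter interruption would have been counted as under a peak. The gap around the start was 1200 bp at Lhx2 (38338729 to 38339928) and 1226 bp at Isl1 (116309600 to 116310825). In Lhx2 the start lay 554 bp from the upstream peak and 647 bp from the downstream one. In Isl1 it lay 89 bp upstream of the peak over the gene and 1138 bp from the upstream peak. Of all protein-coding genes, 3.63% had the start in a gap with a peak within 5 kb on both sides, with a median gap of 2176 bp, and among marked genes the share was 17.5%. The 2 of 10 found here was therefore near the share among marked genes, while 7 of 10 under a peak compared with 21.5% of marked genes.

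RefSeq lists 13 starts for 9 of the genes, and Lhx5 has none in that table. Of these, 8 lay under a peak, 3 in a gap and 2 beyond the end of a peak. Lhx2 has 2 listed starts, and each lay in a gap of its own. The second, at base 38351308, fell in the gap of 1344 bp (38350581 to 38351924) between the wide peaks inside the gene, 728 and 617 bp from their edges. Lhx3 also has 2, at bases 26208249 and 26206575, and both lay outside its peak, the nearer one by 287 bp. All 3 listed starts of Lhx6 were under the same peak. Between the peaks of the 10 genes there were 12 gaps, 8 of them under 2 kb.

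**Figure D3:**
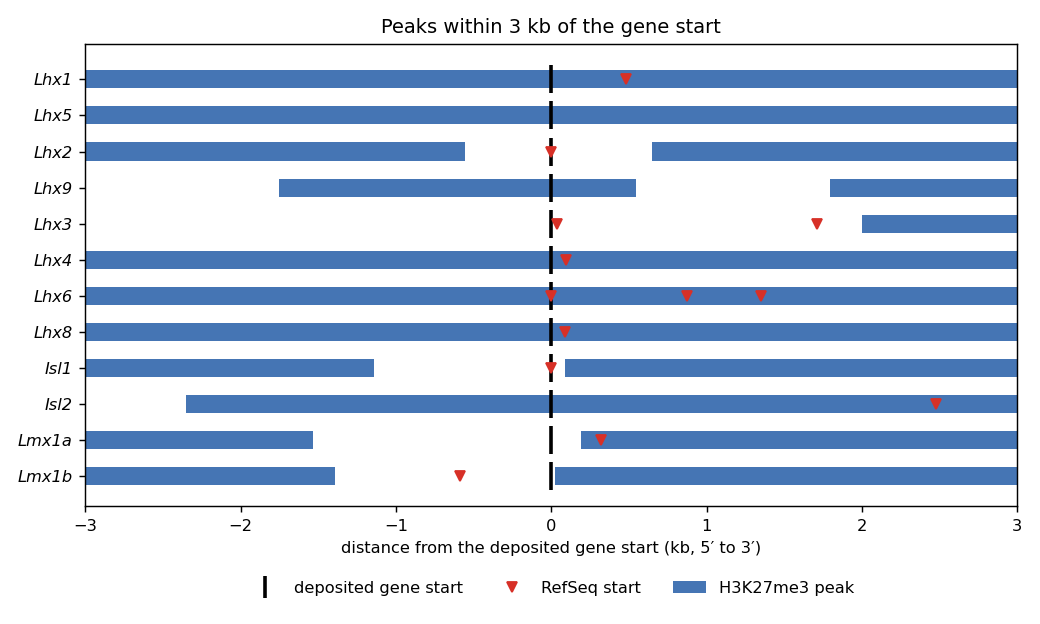
Peaks (blue) within 3 kb of the deposited gene start for the 10 genes and for Lmx1a and Lmx1b, by distance in kb with 5′ to the left. Black ticks mark the deposited start and red triangles the RefSeq starts in this range. The start is free of a peak in Lhx2, Isl1, Lhx3, Lmx1a and Lmx1b, with peaks on both sides in all of these but Lhx3.

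The composition of the promoter window of 300 bases varied widely within the family. The CpG number ran from 4 at Lhx8 to 37 at Isl1, with a median of 19 over the outermost start of the 9 listed genes. The median over 17492 protein-coding genes was 13 (quartiles 4 and 24). Both genes with an interrupted mark at the start were rich in CpG, Isl1 with 37 and Lhx2 with 34 at its first start and 29 at its second. Lhx1, with 31, was as rich and lay under a peak, so CpG number alone did not separate the states. Lhx9 had 6 and Lhx8 had 4 CpGs in the window and both lay under peaks. The listed starts of Lhx1, Lhx9 and Isl2 lay inside the deposited gene spans and their windows did not reach the deposited starts. Over all protein-coding genes the median was 19 CpGs where the start lay in a gap (632 genes) and 13 where it lay under a peak (762 genes). The homeodomain core motif TAATTA, searched on both strands, which are the same for this palindrome, was in none of the windows of the 9 genes, also at their further starts, and in 4.53% of the windows of all starts listed. At that share few would be found in 13 windows.

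The mark formed a block that was shared by the family downstream of the start. From 2.5 to 9 kb downstream every one of the 10 genes was under a peak. At 18 kb downstream 8 genes were still covered, and at 20 kb 2 were. From 20.5 to 24.5 kb the number varied between 1 and 4, with 4 at 24.5 kb. Upstream the cover fell earlier, from 8 genes at 2 kb to 5 at 10 kb. Over 17492 protein-coding genes the share covered was 4.36% at the start, 6.61% at 2 kb upstream and 6.49% at 2 kb downstream, so that a dip at the start was also present over all genes. In the 24 Pax, Dlx, Nkx2 and Nkx3 genes, other homeobox or paired-box families that all carried the mark, 75% were covered at the start, 70.8% to 91.7% from 2.5 to 9 kb downstream, 54.2% at 18 kb and 62.5% at 20 kb. At 24.5 kb downstream 54.2% of these 24 genes were covered. Upstream, 87.5% of them were covered at 2 kb and 66.7% at 10 kb. Whether the families differ beyond replicate error could not be tested with 1 library.

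**Figure D4:**
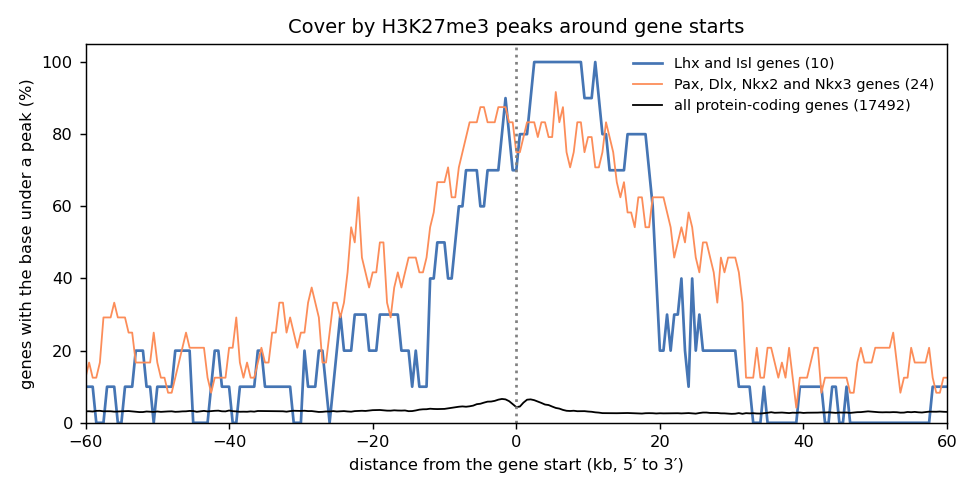
Share of genes with the base under a peak (%) by distance in kb from the gene start, for the 10 Lhx and Isl genes, 24 Pax, Dlx, Nkx2 and Nkx3 genes and 17492 protein-coding genes. Starts are the deposited ones for the families and the outermost RefSeq ones for all genes. The share of Lhx and Isl genes is 100% from 2.5 to 9 kb downstream, 20% at 20 kb and 40% at 24.5 kb.

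The genes differed in the distance to the nearest peak beyond those joined. At Lhx9, Lhx3, Lhx4 and Isl2 the nearest peak beyond those joined lay 568, 319, 236 and 153 kb from the gene. At the other 6 genes it lay 5.33 kb (Lhx6) to 12.6 kb (Lhx1) away, so a wider reach would have added peaks. With peaks within 5 kb of each other joined, the marked span was 107 kb at Lhx5 and 68.5 kb at Lhx2. At the other genes it ran from 15.1 kb (Isl2) to 44.2 kb (Lhx1), with 38.6 kb at Lhx4, so it did not follow this distance. In a window of 20 kb on each side of the gene, by the RefSeq gene spans, cover ran from 30.9% to 72.4% with a median of 46.8%. Pooled over the bases of the 10 deposited gene spans with these flanks, 49.76% were under a peak. The median over all protein-coding genes in such a window was 0% and the upper quartile 1.85%.

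Lmx1a and Lmx1b, the remaining LIM-homeodomain genes of the mouse, act in dopaminergic neurons and the dorsal limb. Both carried the mark in a more broken form than the 10 genes. Lmx1a (160 kb long) had 15 peaks with a summed length of 58.5 kb and Lmx1b (79.5 kb long) had 7 with 47.8 kb. Their widest peaks, 19.7 and 18.5 kb, lay over the 5′ part of each gene and began 193 and 22 bp downstream of the start. The deposited start of both lay in a gap, of 1724 bp at Lmx1a and 1415 bp at Lmx1b, although the start of Lmx1a in the RefSeq promoter table lay under the peak.

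The protein partners of these factors were mostly without a peak. Ldb1 and Ldb2 bind LIM domains and link the factors to each other, the Ssbp proteins stabilize Ldb, Rlim is a ubiquitin ligase that targets Ldb, and the LIM-only proteins Lmo1 to Lmo4 compete for Ldb. Of these 10 genes 2 had a peak (95% Wilson interval 5.67 to 51%, counting error only), close to the 20.7% of all protein-coding genes. Lmo2, a regulator of blood formation, had 5 peaks of 18.9 kb in sum with a highest pileup of 13.37 fragments. Lmo3 had 3 peaks of 7.37 kb in sum, all inside the gene. The nearest peak lay 13.4 kb from Ssbp4, 32.2 kb from Ssbp2, 45.1 kb from Lmo1, 67 kb from Ldb1, 180 kb from Lmo4, 206 kb from Rlim, 208 kb from Ssbp3 and 332 kb from Ldb2. A mark below the lowest called pileup of 9.86 fragments would not have been detectable at these genes.

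Transcription factors that act beside LIM-homeodomain factors in the same lineages were marked in 21 of 24 cases, and the largest summed lengths were at Pax2 (94.1 kb, kidney and eye), Gata4 (57.9 kb, heart and gonad), Hand2 (51.2 kb, heart and limb), Olig2 (43.6 kb, motor neuron progenitors) and Nkx2-5 (43.4 kb, heart). The 3 without a peak were Pou1f1 and Hesx1, both of the pituitary, and Mef2c, which is also active in chondrocyte hypertrophy. Genes with a LIM domain but no homeodomain, such as those for cytoskeletal adaptors, were joined to a peak in 7 of 39 cases (17.9%), near the 20.7% of all genes. The count depends on the deposited join. By RefSeq gene spans, 23.1% of the 39 had a peak within 5 kb, against 22% of all protein-coding genes. None of the 39 was joined to a peak at or below 0.01 in mean q-value, against 5.9% of all protein-coding genes. Few would be found in a list of this size at that share. No RNA was measured in these libraries, so the cell type could be examined only through the mark. None of 12 chondrocyte marker genes, among them Col2a1, Acan and Sox9, had a peak within 5 kb (upper limit 24.2%).

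**Figure D5:**
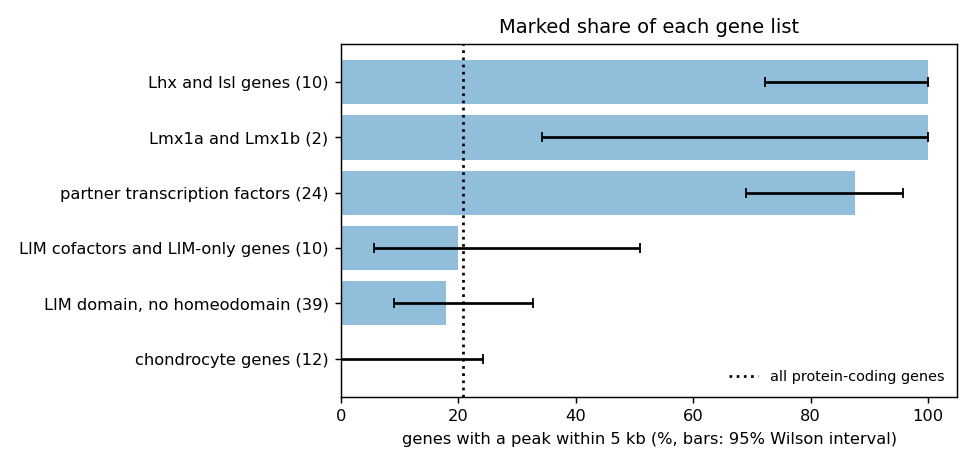
Share of each gene list joined to a peak within 5 kb by the deposited annotation (%), with the number of genes in parentheses. The 95% Wilson intervals cover counting error only. The dotted line is the 20.7% of all protein-coding genes. The Lhx and Isl genes, Lmx1a and Lmx1b and the partner transcription factors lie above it, and the intervals of the cofactor, LIM-domain and chondrocyte lists contain it.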

How the data were processed

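One ChIP and 1 input library were compared. Per the labels, CASAVA 1.8.4, Bowtie2 and MACS2 were used with mm10. Per the file headers, trimmed and duplicate-free reads were given to MACS 2.1.0.20140616 in broad mode (effective genome size 1.87 Gb, fragment length 294 bp, q cutoff 0.05, larger library scaled to the smaller). The authors deposited per peak a pileup (a coverage signal), the fold enrichment (a ratio to the input background, with 1 added to both) and the q-value as −log10, averaged over the peak, so means above the cutoff occur. A second deposited table joins peaks to Ensembl genes within 5 kb, by a tool not given in the sources used here. Column names for p-values and q-values in the first table were altered by a spreadsheet program, and p-values were not used. All 19359 peaks had the same position, pileup and fold enrichment in both tables.

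Joined symbols were split, and 98.8% of 4987 were found in the RefSeq table of GRCm38.p6, with older symbols matched where unique. A start under a peak was called from the deposited gene position, and a gap when peaks lay within 5 kb on both sides of it. The implied input background was the pileup plus 1, divided by the fold enrichment, minus 1. The interval functions were tested on simulated peaks. Python 3.11.15, pandas 2.3.3, SciPy 1.17.1 and matplotlib 3.10.9 were used. No p-value was computed, and Wilson intervals cover counting error only. The members and gene lists were chosen with earlier results of these data known. Named genes were the members, Lmx1a and Lmx1b, the cofactors, genes sharing a peak with a member, and up to 5 genes of each other list with the largest summed length, and the unmarked partner factors were named after their values were seen. Some genes that this rule would name are not reported here. Thresholds on q-value, fold enrichment and width, gene positions and reach were varied.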

Additional observations from a re-analysis of the deposited data

How the results depend on the processing

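Of 38 alternatives to the 7 main results, 31 stayed within 1.5 times the reported value and 7 did not. The gap at the start and its 6 alternatives were chosen after the peaks had been seen. Keeping peaks at or below 0.01 in mean q-value left 10 of the 22 peaks and 1 gene with the start in a gap (Lhx2), and keeping those enriched 3.5-fold or more left 9 peaks and 1 such gene (Lhx2), as fewer peaks were kept. Joining peaks within 5 kb left 11 domains and within 20 kb 10. The pooled share of bases under a peak in the genes and their flanks moved from 49.76% to 28.94% with 50 kb on each side, since the window grew. Summed lengths fell to 0 kb for Isl1, Isl2 and, under the fold threshold, Lhx3. Among the other lists, a q-value of at most 0.05 left 4, and the stricter thresholds 0, of the LIM-domain genes without a homeodomain, and the stricter thresholds left 1 and 0 of the cofactor genes. No paired analysis was possible because there was only 1 library in each group, and leaving out a replicate was not possible for the same reason. The lowest called pileup of 9.86 fragments limits what could be detected at genes without a peak.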

Other observations

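Of the Dlx genes 4 of 6 (Dlx2, Dlx3, Dlx5 and Dlx6) had the start in a gap between peaks, whereas all 9 Pax genes had it under a peak. At Dlx2 the whole gene lay between peaks, the nearest 1.33 kb away. Dlx5 and Dlx6 are neighbours on chromosome 6, so their gaps are not separate cases. These genes were named after their states were seen, and over all protein-coding genes the share was 3.63% in a gap and 4.45% under a peak. Among marked genes, as all of these were, it was 17.5% in a gap and 21.5% under a peak.

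The peaks at Lmx1a reached deep into the gene. Its 15 peaks included 1 of 9.70 kb (chromosome 1, 167803982 to 167813684) that began 115 kb downstream of the start, with a pileup of 12.38 fragments and a fold enrichment of 3.59. A pair of narrow peaks in the middle of the gene stood at the lowest pileup of the list, 9.86 fragments.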
